A study of Mus musculus with 2 samples.

Results

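The genes described here are 27 that make, sense, move or store cholesterol, chosen by name and followed across the cell populations of the mouse anorectal junction, where the stratified skin-like epithelium of the anal canal meets the glandular epithelium of the rectum. They were chosen with earlier results of these data known. A count of them set beside the share of all genes is therefore a description and not independent evidence. Of the 27 genes, 26 were measured in both libraries, among 31054 features in the normal library and 32285 in the wounded library, and Faxdc2 was not analysed here. Acat2 in this list is the cytosolic acetyl-CoA acetyltransferase that opens the pathway, not the sterol acyltransferase that shares the alias, and none of the 27 is a lipoprotein receptor. Cells came from C57/BL6J mice carrying the K17CreERT2 driver, in which the keratin 17 promoter expresses a tamoxifen-inducible Cre, and the R26R GFP reporter, and they were sorted for the epithelial surface protein Epcam and captured with 10x Genomics 3' chemistry. Mice of both libraries had received tamoxifen. The normal library was made from pooled mice without a wound, and the wounded library from tissue taken 1 week after an EDTA wound. In the study's methods this wound was hot EDTA followed by an electric brush, to remove the rectal crypts near the junction. The labels did not give the age of the mice. With 1 library per condition there was no replicate, so no p-value is given anywhere. All intervals are exact 95% intervals that cover counting error of unique molecular identifiers (UMIs, counted messenger molecules) and not the spread between mice.

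The normal library held 2564 barcodes and 17617944 UMIs, and the wounded library held 17216 barcodes and 88260050 UMIs. After the study's filters, 1548 and 5225 cells were left, of which the depositors had named 939 normal cells as Basal, Suprabasal, Anal Canal or Rectum and 4147 wounded cells as Basal, Suprabasal, Rectum, Regeneration, Wound_Stress or Hybrid (1 of the named normal cells did not pass the filters). Median depth was 9724 UMIs in named normal cells and 10077 in named wounded cells, while Hybrid cells had a median of 2390. The libraries shared 1 barcode and no barcode among named cells. The 610 normal and 1078 wounded cells without a deposited name were clustered again with the cholesterol genes left out, and groups were named from marker lists. The largest was anal gland-like, with 328 normal and 422 wounded cells. The study had recognised its own anal gland cluster by lipid and steroid pathways before setting it aside. It also reported that the glands in tissue were positive for Oil red O and for perilipin-2 protein. Several of the 12 anal gland markers used here were picked by the study on these samples, so high lipid genes in the anal gland-like group are not independent evidence.

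Some deposited names went against part of their markers in the wounded library. The wounded Basal cluster had 1987 CPM (the UMIs of a gene scaled to a common total per group of cells) of Krt10 and 2473 CPM of Krt1, keratins of the suprabasal layers, whereas the normal Basal cluster had 48.4 and 17.4 CPM and the normal Anal Canal cluster had 2228 and 2286 CPM. The 7 stratified basal markers went with the name, at 13189 CPM in wounded Basal, the highest of the wounded named clusters, against 10989 CPM in normal Basal and 18958 CPM in Anal Canal. Over 10230 genes the profile of wounded Basal correlated at 0.9435 with normal Anal Canal and at 0.8621 with normal Basal, a description across genes and not across samples. The profiles of Regeneration and Wound_Stress were closest to the normal anal gland-like cells (0.939 and 0.9331) and next to normal Basal (0.9173 and 0.8895). The 12 anal gland markers, all with UMIs in both Regeneration and Wound_Stress, summed to 4161 and 3930 CPM, against 349 CPM in wounded Basal and between 311 and 1248 CPM in the 4 normal clusters. The 7 stratified basal markers summed to 5982 CPM in Regeneration and 4067 CPM in Wound_Stress, against 5087 CPM in normal anal gland-like cells. Re-clustering put 67 Regeneration cells, 136 Wound_Stress cells and 25 normal Basal cells into anal gland clusters. In Hybrid, 60 cells fell into an endothelial cluster. The deposited names are used below as names only, and results that rest on these clusters are also given without the cells placed in another type.

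Cholesterol is built from acetyl-CoA through mevalonate, isoprenoid diphosphates, squalene and lanosterol, and the later enzymes trim and reshape lanosterol into cholesterol in the endoplasmic reticulum. The transcription factor encoded by Srebf2 is held in that membrane by the escort protein Scap and the retention proteins Insig1 and Insig2 when sterols are plentiful, and is carried away, cleaved and sent to the nucleus when sterols fall. Insig1 and most pathway enzymes are known targets of that factor, whereas Insig2 in liver is known to be driven in other ways. In skin, cholesterol made by keratinocytes goes into the lipid barrier, and sebaceous glands and related glands make lipids in bulk.

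Promoter windows from RefSeq on GRCm38.p6, reaching from 250 bases before to 50 after each annotated start, were found for 22 of the genes, in 28 windows. Hmgcs1, on the plus strand at chr13:119690379-119708260 (ENSMUSG00000093930), encodes the cytosolic HMG-CoA synthase. Insig1, on the plus strand at chr5:28071363-28078662 (ENSMUSG00000045294), and Insig2, on the minus strand at chr1:121304353-121332589 (ENSMUSG00000003721), encode the retention proteins. Lss, on the plus strand at chr10:76531588-76557138 (ENSMUSG00000033105), encodes lanosterol synthase. Their windows are shown because these 4 genes separated the clusters in different ways. Capitals mark the short sterol response element CACNCCAC and the CCAAT box on either strand, and each is printed 5' to 3' on the gene's own strand.
Hmgcs1, chr13:119690101-119690400 (+): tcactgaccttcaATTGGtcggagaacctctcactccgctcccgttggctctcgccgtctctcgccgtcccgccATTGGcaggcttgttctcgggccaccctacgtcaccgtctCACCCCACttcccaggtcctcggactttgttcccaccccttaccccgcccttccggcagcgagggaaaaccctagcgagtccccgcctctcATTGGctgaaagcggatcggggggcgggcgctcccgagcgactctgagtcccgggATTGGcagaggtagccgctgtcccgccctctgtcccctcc
Insig1, chr5:28071162-28071461 (+): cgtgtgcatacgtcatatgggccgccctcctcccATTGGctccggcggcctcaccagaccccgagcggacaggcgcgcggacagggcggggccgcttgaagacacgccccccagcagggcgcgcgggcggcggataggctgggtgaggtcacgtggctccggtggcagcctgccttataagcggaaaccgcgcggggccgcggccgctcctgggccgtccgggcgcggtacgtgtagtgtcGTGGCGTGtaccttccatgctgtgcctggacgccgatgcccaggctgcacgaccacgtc
Insig2, the first of 3 windows, chr1:121332540-121332839 (-): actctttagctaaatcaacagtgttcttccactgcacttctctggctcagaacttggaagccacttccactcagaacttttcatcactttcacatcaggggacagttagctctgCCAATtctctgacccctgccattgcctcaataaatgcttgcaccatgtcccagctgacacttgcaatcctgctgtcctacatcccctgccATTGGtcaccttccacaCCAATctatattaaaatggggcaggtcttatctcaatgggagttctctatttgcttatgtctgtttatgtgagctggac
Lss, chr10:76531355-76531654 (+): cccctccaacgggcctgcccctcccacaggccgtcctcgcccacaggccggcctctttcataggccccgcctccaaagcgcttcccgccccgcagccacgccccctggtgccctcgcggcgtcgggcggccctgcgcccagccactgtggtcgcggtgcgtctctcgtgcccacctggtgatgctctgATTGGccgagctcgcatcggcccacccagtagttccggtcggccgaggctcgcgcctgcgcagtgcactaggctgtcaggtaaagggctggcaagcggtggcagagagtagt

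The full element TCACNCCAC was present in 1 of the 22 genes, Hmgcs1, at position -137 from the start, and in 1.55% of 6239 expressed genes (1.24% of all 32851 windows of the same length). The short element, which the full element contains, was in Acat2, Hmgcs1 and Insig1 (at position -9, on the reverse strand) and in 7.74% of expressed genes (6.24% of all windows). CCAAT boxes were in 20 of the 22 genes, against 42.8% of expressed genes, and the GC box GGGCGG was in 20 of the 22, against 71.1% of expressed genes. Insig2 counts for the CCAAT box through its printed window alone, which has 3 CCAAT boxes and 0 GC boxes. Its windows at chr1:121327975-121328274 and chr1:121327629-121327928 have 0 CCAAT boxes and 1 GC box each, and which start is used was not tested. Both strands were searched for each motif. A match is a string of letters in this window and not a bound site.

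Summed over the 26 genes, the pathway was highest in the anal gland-like cells of the wounded and normal libraries, followed by Regeneration. In the normal library the sum was 1238 CPM (1196 to 1280) in Basal, 1302 CPM (1255 to 1349) in Suprabasal, 1015 CPM (985 to 1045) in Anal Canal and 1927 CPM (1826 to 2032) in Rectum. The normal anal gland-like cells had 3966 CPM (3904 to 4029), above all 4 named clusters, and normal fibroblast-like cells had 680 CPM (601 to 766). In the wounded library Basal had the lowest named sum, 909 CPM (885 to 934), and Regeneration the highest, 3167 CPM (3136 to 3198). Suprabasal had 1298 CPM, Wound_Stress 1553 CPM, Hybrid 1570 CPM and Rectum 1646 CPM, and the counting interval of Hybrid overlapped those of Wound_Stress and Rectum. The wounded anal gland-like cells reached 7103 CPM (7039 to 7168), the highest of all groups. The barcodes that failed the filters, which hold much free or degraded RNA, had 963 CPM in the normal library and 924 CPM in the wounded library.

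**Figure D1:**
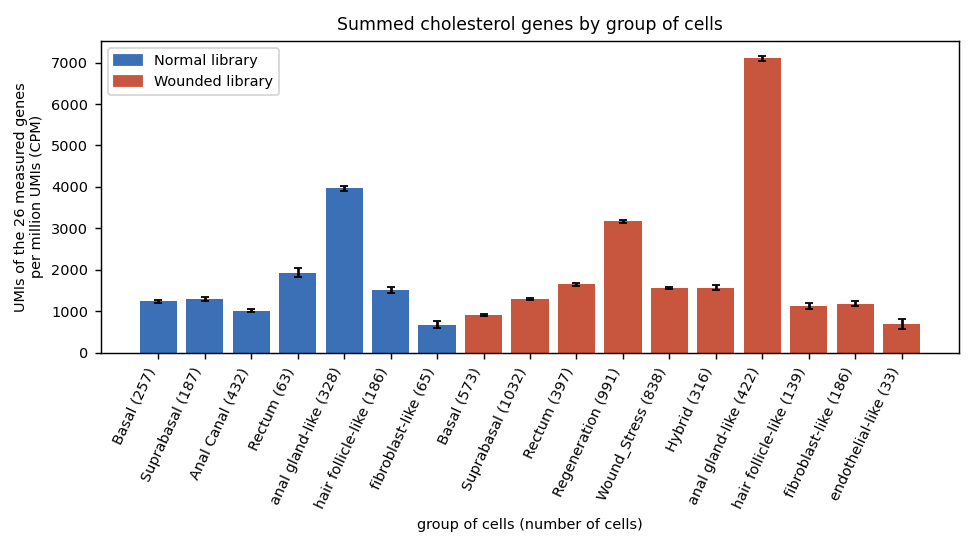
Summed CPM of the 26 measured cholesterol genes (vertical axis, starting at 0) in each group of cells of the normal and wounded libraries, with exact 95% counting intervals as error bars. Anal gland-like cells (3966 and 7103 CPM) and wounded Regeneration (3167 CPM) stand above the other groups, which lie between 680 and 1927 CPM.

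The sums hide a division among the genes. Of the 26 genes, 19 had their highest level of the 17 groups in wounded anal gland-like cells. Over the 10 named clusters alone, 12 were highest in Regeneration and 7 in normal Rectum. Across these 10 clusters, 12 genes correlated above 0.7 with the sum of the others, led by Sqle (0.94), Hsd17b7 (0.92) and Lss (0.91), and 6 correlated below 0: Lbr (-0.02), Mvk (-0.04), Dhcr7 (-0.14), Insig2 (-0.20), Ggps1 (-0.29) and Sc5d (-0.54). The clusters share libraries and depth, so these values are a description. The share of all genes with such maxima or correlations was not counted, so no excess over other genes can be read from these counts. Soat1, the acyltransferase that esterifies cholesterol for storage in droplets, had the widest range, 83.3-fold from the lowest to the highest cluster. Its lowest cluster, normal Suprabasal, had 2 UMIs of Soat1, so this range is imprecise. Insig1 ranged 21.2-fold, Stard4, a cytosolic sterol carrier, 16.2-fold and Lss 10.5-fold. Ggps1, which makes geranylgeranyl diphosphate for protein prenylation and not for sterols, ranged 1.71-fold.

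**Figure D2:**
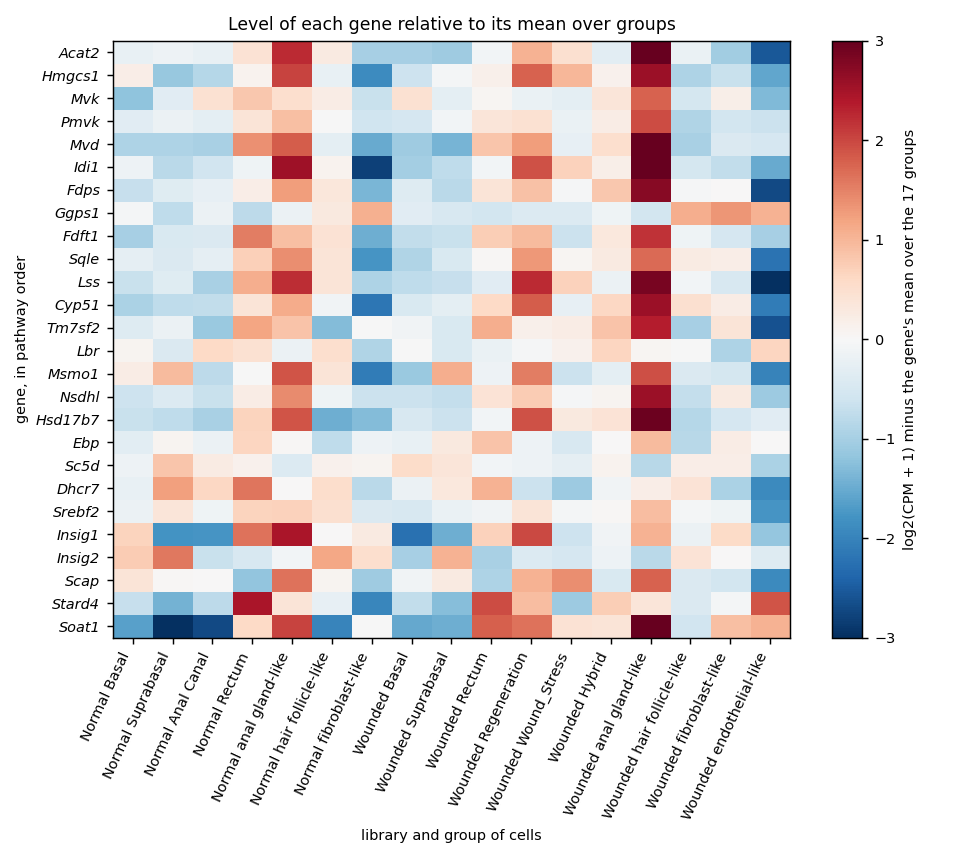
Level of each cholesterol gene (rows) in 17 groups of cells (columns), coloured by log2(CPM + 1) minus the gene's mean over the groups, with colours capped at -3 and 3. Most early and middle enzymes are above their mean in both anal gland-like groups and in Regeneration, whereas Sc5d, Insig2 and Ggps1 are not.

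In the unwounded junction the comparison of the layers asked how the pathway differed between Basal cells and the Suprabasal and Anal Canal clusters. Suprabasal differed from Basal in single genes while the sum was nearly level, with a log2 ratio of 0.07 (0.00 to 0.14). At least 2-fold higher were Dhcr7 (55.6 against 19.6 CPM, log2 ratio 1.51, 1.03 to 2.0) and Sc5d (76.7 against 38.1 CPM, 1.01, 0.65 to 1.38), enzymes of the last steps from lathosterol. At least 2-fold lower were Hmgcs1 (94.6 against 241 CPM, -1.35, -1.58 to -1.13) and Insig1 (10.1 against 60.3 CPM, -2.58, -3.28 to -1.95). So 2 of the 25 genes with at least 20 UMIs were higher and 2 lower, where 6.57% of all tested genes were at least 2-fold higher and 17.1% at least 2-fold lower. Soat1 had too few UMIs to be counted. The median log2 ratio was 0.20 over the 25 genes and -0.29 over all tested genes. Msmo1 (260 against 156 CPM) and Insig2 (153 against 86.1 CPM) had log2 ratios of 0.73 and 0.83.

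Anal Canal cells had lower Hmgcs1 (116 CPM, log2 ratio over Basal -1.06), Msmo1 (77.4 CPM, -1.02), Insig1 (10.3 CPM, -2.55), Insig2 (31.0 CPM, -1.47) and Soat1 (2.28 CPM, -1.37). Mvk, mevalonate kinase, was at least 2-fold higher, at 39.7 CPM against 11.8 CPM (1.75, 1.20 to 2.34). Of 25 tested genes 1 was at least 2-fold higher (8.73% of all genes) and 5 at least 2-fold lower (10.2% of all genes), and the summed log2 ratio was -0.29. Both comparisons rest on the normal Basal cluster, in which 25 of 257 cells fell into the anal gland cluster. Without cells placed in another type, Basal Insig1 was 39.7 CPM and Basal Hmgcs1 189 CPM, the summed log2 ratios were 0.32 for Suprabasal and -0.03 for Anal Canal, and the counts were 2 higher and 1 lower for Suprabasal and 2 higher and 2 lower for Anal Canal. Thus the difference in the Anal Canal sum was near 0 once those cells were left out.

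Normal Rectum, the glandular epithelium, had a sum 1.68-fold that of the other named normal cells (log2 ratio 0.75, 0.66 to 0.83). Stard4 had 128 CPM in Rectum and between 7.89 and 13.7 CPM in the other 3 clusters, a log2 ratio of 3.43 (3.01 to 3.85). Soat1 had 31.2 CPM, from 22 UMIs in Rectum, against 0.876 to 5.91 CPM (3.39, 2.51 to 4.24). Among the enzymes, Mvd (62.5 CPM, 2.43), Fdft1, squalene synthase (129 CPM, 2.15), Tm7sf2 (12.8 CPM, 2.10) and Lss (34.1 CPM, 1.93) were the next highest. Insig1 was also higher, at 118 CPM (2.26), whereas Insig2 was lower (35.5 CPM, -1.11) and so was Scap (18.5 CPM, -1.38). In all, 11 of 26 genes were at least 2-fold higher, where 17.5% of all genes were, and 2 were at least 2-fold lower, where 14.9% were. Their median log2 ratio was 0.83, against 0.10 over all tested genes, and Rectum held 63 cells.

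In the normal library the anal gland-like cells had 3.30-fold the summed level of the named cells (log2 ratio 1.72, 1.69 to 1.75). Most enzymes from acetyl-CoA to the sterols were higher, including Acat2 (175 CPM, log2 ratio 2.41), Hmgcs1 (864 CPM, 2.50), Mvd (85.5 CPM, 2.49), Idi1, the isopentenyl diphosphate isomerase (554 CPM, 3.03, 2.90 to 3.15), Lss (74.5 CPM, 2.80) and Hsd17b7 (54.3 CPM, 2.67). Soat1 had 86.8 CPM, a log2 ratio of 4.13 (3.70 to 4.59). Of 26 genes 17 were at least 2-fold higher, where 8.22% of all genes were, and 0 were at least 2-fold lower, where 19.0% were. The median log2 ratio was 1.59, against -0.06 over all tested genes. Sc5d (-0.73), Dhcr7 (-0.72) and Insig2 (-0.65) were below the named cells by less than 2-fold. Srebf2 itself had 94.9 CPM (0.65) and Scap 138 CPM (1.59).

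After wounding the anal gland-like cells had 3.75-fold the sum of the named wounded cells (1.91, 1.89 to 1.92), although the named cells here included Regeneration. Hmgcs1 reached 1241 CPM, Idi1 1204 CPM, Fdps, farnesyl diphosphate synthase, 973 CPM and Soat1 534 CPM. The log2 ratios were highest for Soat1 (3.94), Acat2 (3.2), Mvd (3.16), Idi1 (2.86), Fdps (2.52), Nsdhl (2.49) and Tm7sf2 (2.38). Again 17 of 26 genes were at least 2-fold higher (5.44% of all genes) and 0 at least 2-fold lower (27.7% of all genes), with a median log2 ratio of 1.73 against -0.28 over all tested genes. Insig1, at 78.9 CPM, had a log2 ratio of only 0.37 (0.23 to 0.51), and Sc5d (-0.95) and Insig2 (-0.89) were again below the named cells. Against the normal anal gland-like cells the wounded ones had 1.79-fold the sum (0.84), with Soat1 at 2.62, Mvd at 1.61, Fdps at 1.48 and Insig1 at -1.41 (-1.57 to -1.25). The 12 anal gland markers summed to 11083 CPM in the wounded and 6706 CPM in the normal group, and the 7 stratified basal markers to 2241 and 5087 CPM. In the wounded library 203 cells of the anal gland cluster carried a deposited name and were outside the group, against 25 in the normal library. The libraries differ in capture, software run and wounding as well as in which cells form the group, and these cannot be told apart.

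**Figure D3:**
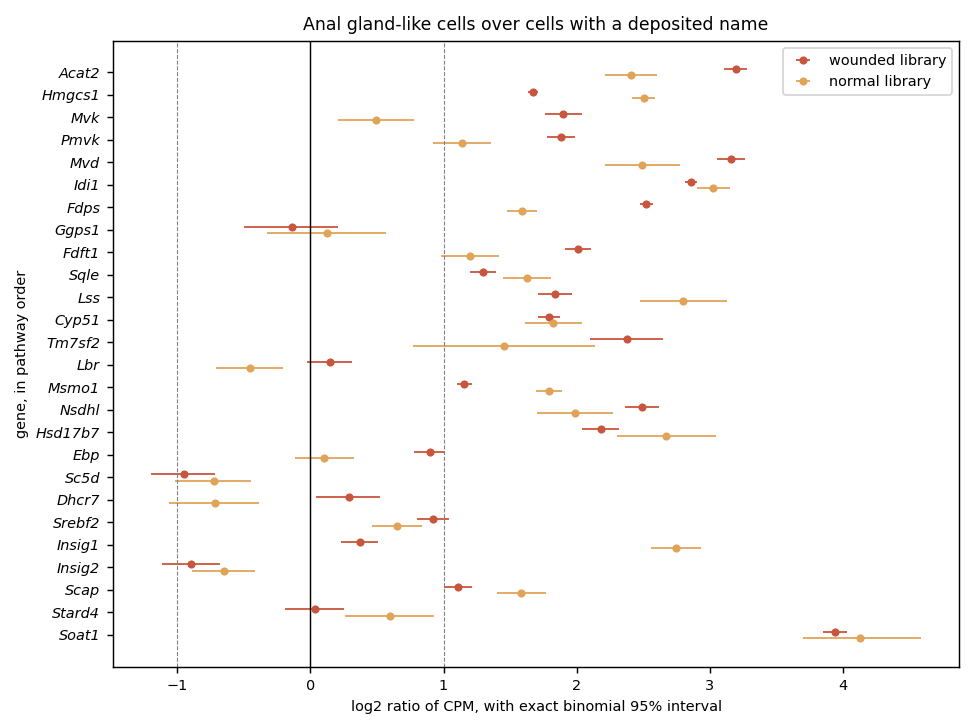
Log2 ratio of each cholesterol gene in anal gland-like cells over the named cells of the same library (horizontal axis, 0 meaning equal levels), for the normal and the wounded library, with exact 95% counting intervals. Soat1, Idi1, Mvd and Acat2 lie above 2 in both libraries, Sc5d and Insig2 lie below 0 in both, and Insig1 lies at 2.75 in the normal and 0.37 in the wounded library.

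Regeneration and Wound_Stress are the clusters that the deposited names tie to the wound. Together they had 2.84-fold the summed level of wounded Basal (1.50, 1.46 to 1.54), and 15 of the 26 genes were at least 2-fold higher (12.2% of all genes) and 0 at least 2-fold lower (12.5% of all genes). The median log2 ratio was 1.28, against -0.05 over all tested genes. Most of the difference lay in Regeneration, at 3.48-fold the sum of Basal (1.80), whereas Wound_Stress was at 1.71-fold (0.77). Basal had the lowest sum of the named wounded clusters. Over all other named wounded cells Regeneration had 2.35-fold the sum (1.23), with a median log2 ratio of 1.08 against -0.21 over all tested genes. Without the cells placed in another type the sums were 2657 CPM in Regeneration and 1417 CPM in Wound_Stress, the joint log2 ratio was 1.29, and 14 genes were at least 2-fold higher and 1 at least 2-fold lower. Anal gland markers were also above Basal (349 CPM), at similar levels in Regeneration (4161 CPM) and Wound_Stress (3930 CPM). The pathway sum differed 2.04-fold between Regeneration and Wound_Stress. The part of the anal gland markers in the result was not tested.

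Among the enzymes that lead to mevalonate and its diphosphates, Acat2 had 76.6 CPM in Regeneration, 51.7 CPM in Wound_Stress and 17.8 CPM in Basal, with log2 ratios over Basal of 2.11 and 1.54. Hmgcs1 had 721, 418 and 135 CPM in the same order (2.42, 2.31 to 2.53, and 1.63, 1.52 to 1.75). Idi1 had 356, 153 and 45.8 CPM (2.96 and 1.74). These 3 genes were graded, highest in Regeneration and lowest in Basal, with counting intervals that did not overlap. Without cells placed in another type, Acat2 was level, at 45.3 CPM in Regeneration and 45.9 CPM in Wound_Stress. Hmgcs1 (650 and 391 CPM) and Idi1 (261 and 132 CPM) kept their order. Pmvk, phosphomevalonate kinase, had 59.7 CPM in Regeneration, 37.4 CPM in Wound_Stress and 29.8 CPM in Basal (1.0 and 0.33). Mvd, which decarboxylates the diphosphate, had log2 ratios of 2.43 and 0.89, and Fdps 1.26 and 0.35. Mvk was the only gene of this stretch below Basal in both clusters by more than counting error (-0.68 and -0.78), and Ggps1 was level (-0.08 and -0.09).

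Among the enzymes of squalene and the sterols, Lss had 76.9 CPM in Regeneration against 8.71 CPM in Basal (3.14, 2.73 to 3.58) and 25.6 CPM in Wound_Stress (1.56). Sqle, squalene epoxidase, had 135, 57.0 and 28.4 CPM in Regeneration, Wound_Stress and Basal. Cyp51, the lanosterol demethylase, had 178 CPM in Regeneration (2.31), while Wound_Stress (41.3 CPM, 0.20) differed from Basal (35.9 CPM) by less than counting error. Msmo1, which starts the removal of the next methyl groups of the sterol ring, had 393 CPM in Regeneration (2.67) and 85.8 CPM in Wound_Stress (0.47). Regeneration was therefore higher than Wound_Stress by log2 ratios of 2.11 for Cyp51 and 2.19 for Msmo1, against 0.79 for Hmgcs1. Hsd17b7 (2.50) and Nsdhl (1.45) were higher than Basal in Regeneration. The last steps went the other way, with Sc5d at -0.71 and Dhcr7 at -0.49 in Regeneration and at -0.84 and -0.97 in Wound_Stress, while Ebp stayed near 0 in Regeneration (0.06).

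The regulators split too. Insig1 had the highest ratio of all the genes, 151 CPM in Regeneration against 7.14 CPM in Basal (4.41, 3.96 to 4.89), and 24.3 CPM in Wound_Stress (1.76). Wounded Basal was the lowest of the 10 named clusters for Insig1. Over all other named wounded cells the log2 ratio of Insig1 in Regeneration was 2.76. Insig2 had 37.8, 35.4 and 24.6 CPM in Regeneration, Wound_Stress and Basal (0.62 and 0.53). Scap was higher in Wound_Stress (116 CPM, 1.53) than in Regeneration (90.6 CPM, 1.16), and Srebf2 had log2 ratios of 0.90 and 0.43. Soat1 had 64.9 CPM in Regeneration (3.33) and 28.0 CPM in Wound_Stress (2.12), against 6.45 CPM in Basal. Stard4 had 44.2 CPM in Regeneration (1.74) but 10.2 CPM in Wound_Stress (-0.38). Without cells placed in another type, Regeneration kept 142 CPM of Insig1, 650 CPM of Hmgcs1 and 261 CPM of Idi1. Other genes fell further, Soat1 from 64.9 to 24.7 CPM, Acat2 from 76.6 to 45.3 CPM and Fdps from 269 to 184 CPM. Basal then had 6.48, 17.5 and 111 CPM of these. Set beside the normal anal gland-like cells, Regeneration was lower in sum (-0.32) and higher for Cyp51 (0.72) and Stard4 (0.55), and Wound_Stress was lower in sum (-1.35).

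**Figure D4:**
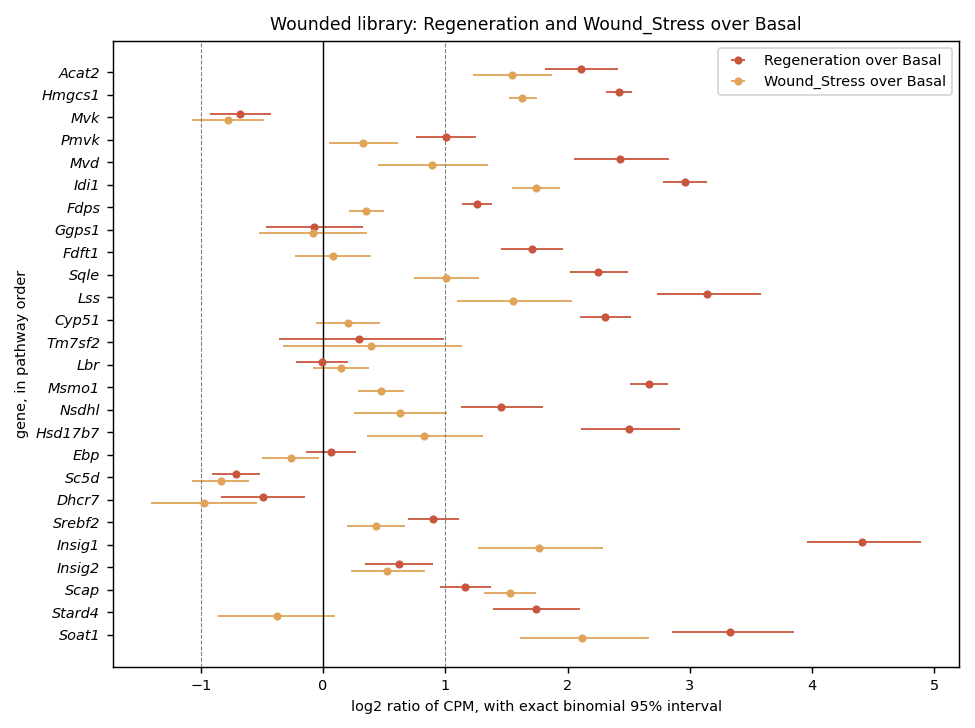
Log2 ratio of each cholesterol gene in Regeneration and in Wound_Stress over wounded Basal (horizontal axis, 0 meaning equal levels), with exact 95% counting intervals. Insig1 reaches 4.41 in Regeneration, Cyp51 and Msmo1 are above 2 in Regeneration and below 0.5 in Wound_Stress, and Mvk, Sc5d and Dhcr7 lie below 0 in both.

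The paralogues Insig1 and Insig2 had different orders across the 10 named clusters. For Insig1 the order from the highest was Regeneration (151 CPM), normal Rectum (118 CPM), wounded Rectum (61.6 CPM), normal Basal (60.3 CPM), Hybrid (35.1 CPM), Wound_Stress (24.3 CPM), wounded Suprabasal (13.0 CPM), Anal Canal (10.3 CPM), normal Suprabasal (10.1 CPM) and wounded Basal (7.14 CPM). Neighbours in this order whose counting intervals overlapped were Regeneration and normal Rectum, wounded Rectum and normal Basal, Hybrid and Wound_Stress, and each adjacent pair from wounded Suprabasal down to wounded Basal. Without cells placed in another type, normal Basal had 39.7 CPM of Insig1, near Hybrid (37.3 CPM) and below wounded Rectum (61.6 CPM). Insig2 instead was highest in the Suprabasal clusters, at 153 CPM in the normal and 105 CPM in the wounded library, then normal Basal (86.1 CPM), and it lay between 24.6 and 45.2 CPM in the other 7 clusters. Msmo1 was high in both kinds of cell, in Regeneration (393 CPM) and in wounded (287 CPM) and normal (260 CPM) Suprabasal cells. Hmgcs1 was not, at 721 CPM in Regeneration and at 201 and 94.6 CPM in wounded and normal Suprabasal cells. Levels in CPM were not scaled by transcript length, so a gene is compared with itself across clusters and not with another gene.

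**Figure D5:**
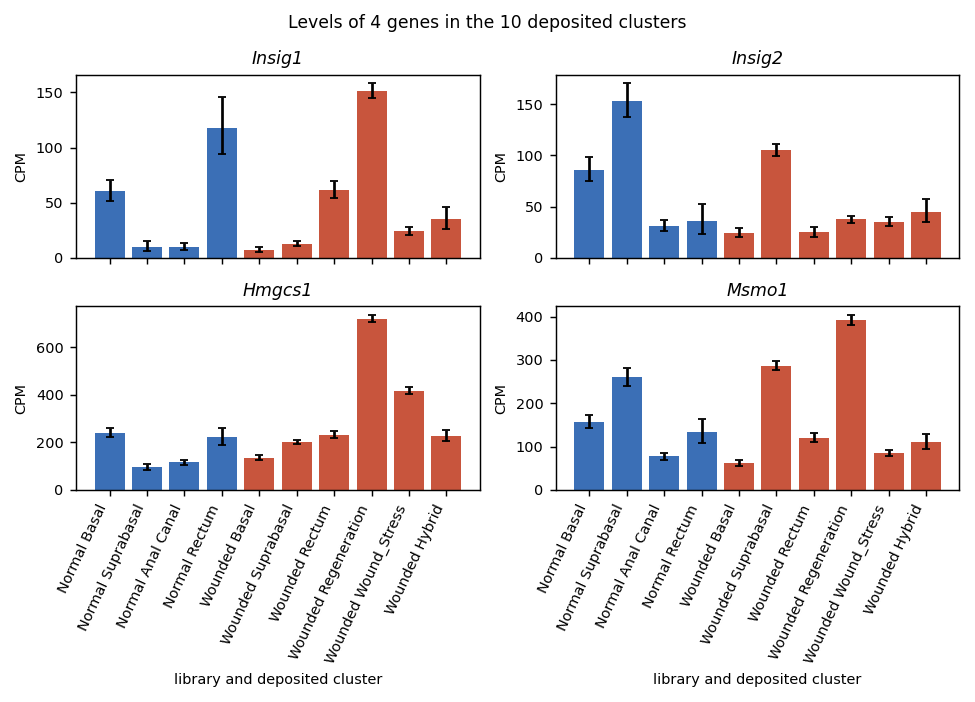
CPM of Insig1, Insig2, Hmgcs1 and Msmo1 in the 10 named clusters (vertical axes start at 0), with exact 95% counting intervals. Insig1 and Hmgcs1 peak in Regeneration (151 and 721 CPM), Insig2 in normal Suprabasal cells (153 CPM), and Msmo1 is high in Regeneration and in both Suprabasal clusters.

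Within the wounded library, Suprabasal had a summed log2 ratio over Basal of 0.51, and 2 genes stood out, Msmo1 (287 against 61.8 CPM, 2.21, 2.06 to 2.38) and Insig2 (105 against 24.6 CPM, 2.10, 1.85 to 2.36). These were the 2 of 26 genes at least 2-fold higher, where 9.85% of all genes were, and 0 were at least 2-fold lower, where 11.3% were. Over the 26 genes the median log2 ratio was 0.08, against -0.14 over all tested genes. Wounded Basal carried the suprabasal keratins (Krt10 at 1987 CPM). It also had more of the 7 stratified basal markers (13189 CPM) than wounded Suprabasal (8061 CPM). Which layers these clusters hold was not tested, so the ratios cannot be read as a basal layer against the layer above it.

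Hybrid had 1.73-fold the sum of Basal (0.79), and 10 of 26 genes were at least 2-fold higher (13.5% of all genes) and 0 at least 2-fold lower (6.76% of all genes), with a median log2 ratio of 0.80 against 0.21. Basal had the lowest sum of the named wounded clusters. Hybrid, at 1570 CPM, was below the 1893 CPM of all named wounded cells together. The highest ratios of Hybrid over Basal were for Insig1 (2.30, 1.68 to 2.92), Soat1 (2.06, 1.38 to 2.75), Mvd (1.67) and Stard4 (1.54). From the deposited whole numbers instead of the matrix 5 genes were higher and the summed log2 ratio was 0.58. Hybrid cells had the fewest UMIs and 60 of 316 fell into an endothelial cluster, and the part of either in the result was not tested; without cells placed in another type the sum was 1529 CPM.

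Wounded Rectum differed from the other named wounded cells in no more of the cholesterol genes than of all genes, with a summed log2 ratio of -0.22. Stard4 (91.2 CPM, 2.02), Dhcr7 (48.7 CPM, 1.35), Soat1 (73.0 CPM, 1.25) and Tm7sf2 (11.9 CPM, 1.21) were the 4 of 26 genes at least 2-fold higher (17.9% of all genes), and Scap (-1.74), Lss (-1.55), Insig2 (-1.15) and Msmo1 (-1.02) the 4 at least 2-fold lower (16.0% of all genes). The median log2 ratio was -0.13, against 0.09 over all tested genes. Without cells placed in another type the summed log2 ratio was -0.045. The other named wounded cells included Regeneration, a name that no normal cluster carries.

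Between the libraries, clusters of the same name were compared for the genes that differed after the wound. In Basal the wounded cells had lower Insig1 (7.14 against 60.3 CPM, -3.08, -3.61 to -2.57), Insig2 (24.6 against 86.1 CPM, -1.81) and Msmo1 (61.8 against 156 CPM, -1.34) and higher Mvk (39.7 against 11.8 CPM, 1.75). That was 1 of 26 genes at least 2-fold higher (15.6% of all genes) and 3 at least 2-fold lower (13.6% of all genes), with a summed log2 ratio of -0.44, which was -0.20 without cells placed in another type, and a median log2 ratio of -0.10 against -0.02 over all tested genes. The wounded Basal cluster had the keratins of normal Anal Canal. Set against that cluster, the log2 ratios were -0.52 (-1.17 to 0.12) for Insig1, -0.34 (-0.69 to 0.01) for Insig2, -0.32 for Msmo1 and 0.00 for Mvk. A change of state after the wound and a difference in which cells carry the name Basal cannot be told apart.

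Suprabasal cells of the libraries had equal sums (-0.00). Over 10230 genes the wounded profile was closest to normal Suprabasal (0.9424) and next to normal Basal (0.9124). The 8 stratified suprabasal markers summed to 5559 CPM in wounded and 11617 CPM in normal Suprabasal, and to 8612 CPM in wounded Basal. A change after the wound and a difference in which cells carry the name Suprabasal cannot be told apart. Hmgcs1 (201 against 94.6 CPM, 1.09, 0.89 to 1.30) and Soat1 (6.83 against 0.876 CPM, 2.96, 1.06 to 6.03) were the 2 of 26 genes at least 2-fold higher, where 16.2% of all genes were, and 0 were at least 2-fold lower, where 5.63% were. Dhcr7 (-0.94) and Acat2 (-0.96) were lower by less than 2-fold. Over all tested genes the median log2 ratio was 0.14, and over the 26 genes it was 0.02. After thinning to 2000 UMIs a cell, 0 were higher and 3 lower.

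Rectum cells had a wounded over normal summed log2 ratio of -0.23, with 1 of 26 genes at least 2-fold higher, Soat1 (73.0 against 31.2 CPM, 1.22, 0.60 to 1.92), where 11.6% of all genes were, and 1 at least 2-fold lower, Lss (11.9 against 34.1 CPM, -1.52, -2.25 to -0.75), where 6.41% were. The median log2 ratio was -0.35, against 0.02 over all tested genes. Insig1 was next, at 61.6 against 118 CPM (-0.94). Wounded Rectum had the highest median mitochondrial share of the named clusters, 12.9%, and its part in the result was not tested; among cells under 10% mitochondrial UMIs 4 genes were lower.

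Neighbouring pathways were taken from lists chosen together with the cholesterol genes. In Regeneration and Wound_Stress over Basal, the fatty acid, efflux and uptake lists had genes at least 2-fold higher and lower. The isoprenoid and processing lists had 0 lower. The median log2 ratio of the fatty acid genes in these clusters was 0.37, against 1.28 for the cholesterol genes. It was 0.93 against 1.59 in normal and 1.74 against 1.73 in wounded anal gland-like cells, and 1.26 against 0.83 in normal Rectum. Of 12 fatty acid synthesis genes 4 were at least 2-fold higher and 3 lower in Regeneration and Wound_Stress over Basal (12.2% and 12.5% of all genes), from Scd1, the stearoyl-CoA desaturase (4.60), and Acss2 (2.77) to Fads2 (-1.46) and Elovl6 (-2.52). In anal gland-like cells 5 of 11 were higher and 1 lower in the normal library, against 8.22% and 19.0% of all genes (Scd1 4.73, Me1 2.45, Scd2 -0.30, Fads1 -1.17). In the wounded library 8 of 12 were higher and 2 lower, against 5.44% and 27.7% of all genes, with Scd1 at 3.03, Fasn at 2.93, Fads1 at -2.76 and Fads2 at 0 UMIs, which puts its ratio at -4.70 or below against a floor of 3 UMIs. Normal Rectum differed, with Acss2 at 4.36 and Scd2 at 2.66 and with Elovl6 at -2.96 and Me1 at -4.81, and 6 of 11 were higher and 2 lower, against 17.5% and 14.9% of all genes.

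Genes of cholesterol efflux and oxysterol sensing were mixed in direction. In Regeneration and Wound_Stress, 3 of 7 were at least 2-fold higher and 2 lower, against 12.2% and 12.5% of all genes as for each list in these clusters, with the efflux pump Abca1 at 3.48 and the oxysterol receptor gene Nr1h3 at 2.72, and with Abcg1 at -1.65 and Mylip, the ligase that degrades lipoprotein receptors, at -2.66. The normal anal gland-like cells had 2 of 6 higher and 3 lower, against 8.22% and 19.0% of all genes (Nr1h3 2.93, Abca1 2.41, Mylip -2.54, Abcg1 -4.15). Uptake and transport genes had 1 of 9 higher and 2 lower in Regeneration and Wound_Stress (Gramd1a 1.24, Scarb1 0.46, Vldlr -1.52, Lrp8 -1.57), and 2 of 9 higher and 2 lower in normal anal gland-like cells (Gramd1a 1.44, Scarb1 1.03, Lrp8 -2.05, Vldlr -3.11). Of the 10 genes of the isoprenoid branch, 2 were at least 2-fold higher and 0 lower in Regeneration and Wound_Stress, Pdss1 (3.37) and Pdss2 (1.86), the subunits that make the tail of coenzyme Q, and the lowest were Coq2 (-0.14) and Rabggta (-0.63). None of the 9 genes that process or degrade the regulators was 2-fold higher or lower there, and the lowest were Mbtps2 (-0.43) and Rnf145 (-0.69).

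After thinning each cell to 2000 UMIs, the median number of UMIs of the 26 genes was 1 in wounded Basal, 4.5 in Regeneration (10th to 90th percentile 1 to 12), 5 in normal anal gland-like cells (1 to 14) and 11 in wounded anal gland-like cells (4 to 26). Hmgcs1 was found in 62.2% of thinned Regeneration cells (92.4% before thinning), in 84.1% of thinned wounded anal gland-like cells (99.5%) and in 21.6% of thinned wounded Basal cells (60.7%). Insig1 was found in 22.6% of thinned Regeneration cells (59.0%) and in 0.709% of thinned wounded Basal cells (6.11%). Regeneration was deeper than Basal, with medians of 12616 and 9075 UMIs. No cell type here is known to lack these genes, so no share serves as a background.

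Outside the lists, the genes whose level over the 10 named clusters followed the summed pathway most closely, by Pearson's r on log scales among 7891 genes, were Lpin1 (0.90), Adck5 (0.88), Ttc19 (0.87), Mob3a (0.86), Tmem55b (0.85), Rdh11 (0.85), 1810013L24Rik (0.84) and Ipmk (0.84). Lpin1, which encodes a phosphatidate phosphatase of glycerolipid synthesis, had 49.8 CPM in Regeneration and 4.18 CPM in wounded Basal. These correlations rest on 10 clusters from 2 libraries and are a description.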

How the data were processed

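Single-cell RNA-seq of the mouse anorectal junction was analysed from the deposited files. The authors aligned reads to mm10 and counted UMIs with Cell Ranger (version 3.1.0 per the labels, while the header of the wounded matrix gives 4.0.0), and deposited raw UMI counts per gene and barcode together with tables of named cells, whose values are natural log values that the authors made with Seurat 3.2.2. After exponentiation and subtraction of 1, 100% of the values of 500 genes were whole (tolerance 1e-06).

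Cells with more than 200 and fewer than 5000 genes and under 25% mitochondrial UMIs were kept, as in the study. Cells were clustered with Seurat 5.3.0 in R 4.3.3 (2000 variable features, from which the cholesterol genes and pathway lists were removed, cell-cycle regression, 10 components, resolution 0.2) to name cells lacking a deposited name. A cluster took the name of the list with the highest mean log2 ratio when that was above 1, at least 3 markers had UMIs and, added after seeing the data, 1 marker was among its 10 leading genes. No doublet caller was run. UMIs were summed per group (Python 3.11.15, numpy 2.4.6, scipy 1.17.1, pandas 2.3.3) and given as CPM with Poisson intervals, and ratios with exact binomial intervals. Genes with at least 20 UMIs over both groups were compared with a limit of 2-fold, and a group at 0 was set to 3 UMIs. Shares used cells thinned to 2000 UMIs, leaving out shallower cells (132 of 316 Hybrid cells). Intervals cover counting error only.

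All 27 genes were eligible to be named. Of each pathway list the 2 highest and 2 lowest genes were named, and of the genes outside the lists the 10 with the highest correlation, except for some that are not reported here. The genes and lists were chosen with earlier results of these data known. Promoter windows came from RefSeq (GRCm38.p6) and gene positions from GENCODE M21. Alternatives were another minimum, thinning, a stricter mitochondrial limit, another resolution, another denominator, the deposited whole numbers, the mean of per-cell values, and leaving out cycling cells, the deepest cells or named cells placed in another type.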

Additional observations from a re-analysis of the deposited data

Results flagged for a closer look

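Several genes went opposite ways in the libraries under the same comparison. Each difference between libraries was not tested, since there was 1 library each, and the named wounded cells include Regeneration while no normal cluster carries that name, and the normal cells closest to it, the anal gland-like cells, are outside the named cells. For Rectum over the other named cells the log2 ratios in normal and wounded were 0.65 and -0.34 for Acat2, 0.61 and -0.80 for Hmgcs1, 1.03 and -0.42 for Sqle, 1.93 and -1.55 for Lss, 1.23 and -0.21 for Cyp51, and 1.60 and -1.0 for Hsd17b7. For Suprabasal over Basal they were -1.35 and 0.58 for Hmgcs1, 0.92 and -0.78 for Mvk, -0.68 and 0.26 for Idi1, 0.33 and -0.43 for Fdps, 1.01 and -0.20 for Sc5d, and -2.58 and 0.86 for Insig1. The wounded Basal profile was closest to normal Anal Canal (0.9435), and 25 normal Basal cells fell into the anal gland cluster. Without cells placed in another type, Idi1 had 53.0 CPM in normal Suprabasal and 62.4 CPM in normal Basal. Hmgcs1 then had 94.6 and 189 CPM, and Insig1 10.1 and 39.7 CPM. For anal gland-like over named cells Dhcr7 had -0.72 and 0.29.

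Barcodes that failed the filters, which no comparison used, also carried UMIs of the cholesterol genes, 963 CPM (915 to 1013) over 1015 normal barcodes and 924 CPM (913 to 934) over 11991 wounded barcodes, with a median mitochondrial share of 75.3% and 60.0%.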

How the results depend on the processing

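No paired analysis was possible because there was 1 library per condition, and no library could be left out. No summed ratio or gene ratio of at least 2-fold changed sign under the settings run. Ratios under 2-fold changed sign in 193 alternatives for single genes and in 3 for sums, all 3 of them for wounded over normal Suprabasal (-0.0036, and 0.061, 0.029 and 0.0052 with the other denominator, under 10% mitochondrial UMIs and without cycling cells). Of 2402 ratios of single genes 2054 stayed within their counting intervals and 348 moved. With at least 50 UMIs all counts were within 1.5 times. The deposited whole numbers were not run across libraries, whose tables were normalized separately, nor for anal gland-like cells. The cause of each shift below was not tested. Sums are log2 ratios, and counts are of genes at least 2-fold higher or lower.

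Thinning to 2000 UMIs a cell gave sums of 0.19 for normal Suprabasal over Basal, 1.43 for Regeneration and Wound_Stress, 0.95 for Hybrid, -0.27 for wounded Rectum, 1.99 for wounded anal gland-like cells, and -0.38 (Basal) and -0.083 (Suprabasal) for wounded over normal. It gave counts of 7 higher and 4 lower for normal Suprabasal, 5 higher for Anal Canal, 1 lower for wounded Suprabasal, and, for wounded over normal, 5 higher in Basal, 0 higher and 3 lower in Suprabasal, and 2 higher and 3 lower in Rectum, with fewer UMIs counted. Cells under 10% mitochondrial UMIs gave 0.91 for normal Rectum, 0.45 and 1 lower for wounded Suprabasal, 1.44 for Regeneration and Wound_Stress, 1.81 for wounded and 1 lower for normal anal gland-like cells, -0.37 for wounded over normal Basal, and -0.38 with 4 lower for Rectum. Resolution 0.4, with 190 normal anal gland-like cells, gave 1.88 and 1 lower for these. Leaving mitochondrial and the 50 most abundant genes out of the total gave 0.15 and 0.58 for normal and wounded Suprabasal, -0.32 for wounded Rectum, and -0.37 and 0.061 for wounded over normal Basal and Suprabasal.

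The deposited whole numbers gave 0.17 and 1 higher for normal Suprabasal, -0.35 for Anal Canal, 0.47 for wounded Suprabasal, and 0.58 and 5 higher for Hybrid. The mean of per-cell values gave 0.20 and 1 higher for normal Suprabasal, 0.42 for wounded Suprabasal, 1.44 for Regeneration and Wound_Stress, 0.95 for Hybrid, 1.95 for wounded anal gland-like cells, and, for wounded over normal, -0.37 in Basal, -0.16 with 1 higher and 1 lower in Suprabasal and 2 lower in Rectum. Without cells that had a UMI of Mki67 or Top2a the sums were 0.31 and 0.57 for normal Suprabasal and Rectum, -0.037 with 3 higher for Anal Canal, 1.85 for normal anal gland-like cells, 0.57 for wounded Suprabasal, 1.61 for Regeneration and Wound_Stress, -0.29 for wounded Rectum, 1.86 with 2 lower for wounded anal gland-like cells, and, for wounded over normal, -0.26 in Basal, 1 lower in Suprabasal, and -0.061 with 0 lower in Rectum. Without the 5% of cells with the most UMIs the values were 1 higher for normal Suprabasal, -0.36 for Anal Canal, 1.64 for normal anal gland-like cells, 1.41 for Regeneration and Wound_Stress, -0.13 for wounded Rectum, and 1.73 with 1 lower for wounded anal gland-like cells. Without named cells placed in another type, a setting chosen after seeing the data, they were 0.32 with 1 lower for normal Suprabasal, -0.033 with 2 higher and 2 lower for Anal Canal, 1.78 and 2.07 for normal and wounded anal gland-like cells, 1.29 with 1 lower for Regeneration and Wound_Stress, -0.045 for wounded Rectum and -0.20 for wounded over normal Basal.

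Depth limits the genes of low count most, among them Tm7sf2 in every cluster and Soat1 in normal Suprabasal cells, and the 63 normal Rectum cells give the widest intervals of the named clusters.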
